A study of Mus musculus with 8 samples.

Results

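Open chromatin along the Myc locus was described from ATAC-seq peak lists of mouse DN3 thymocytes, over the window from 61900000 to 64000000 of chromosome 15 (mm10, GRCm38). The window runs from 85.3 kb before the annotated start of Myc, at 61985341, through Myc, the long non-coding RNA gene Pvt1, a gene-poor desert and the Notch-dependent Myc enhancer N-Me to the blood enhancer cluster and the genes beyond it. Its members are all peaks that overlap it. Merged across libraries wherever they overlapped by 1 bp or more, these made 177 of the 180321 regions of the whole genome. Positions are given as the distance of a region's midpoint from the start of Myc, with a plus sign downstream.

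The cells were C57BL/6 thymocytes at the DN3 stage, in which precursors committed to the T lineage rearrange the T-cell receptor beta chain. One group had a wild-type N-Me and the other was a homozygous mutant of GATA sites 1 and 2 in N-Me, with 2 libraries in each. The labels name no treatment, age or sorting gate and do not say that replicates came from separate animals, so p-values measure only the spread between these libraries. The series lists 4 further samples, of leukaemia blasts, that were not analysed here.

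Myc encodes a transcription factor that drives growth and division, and thymocyte precursors use it to expand. Notch signalling raises Myc in T-cell precursors and in T-cell leukaemia through N-Me, far downstream of the gene, where RBPJ, the DNA-binding partner of Notch, acts beside GATA3 and RUNX1. Farther downstream lies the blood enhancer cluster, known for supporting Myc in blood stem cells and in myeloid leukaemia. Pvt1 is transcribed next to Myc and holds enhancers within its introns.

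The RefSeq promoter table (GRCm38.p6) had entries for 8 genes of the window and none for Myc or Pvt1. Of these 8 promoters, each 300 bases long, only that of Gm20740, a long non-coding RNA gene beyond N-Me, carried a peak, and it did so in 4 of 4 libraries. It is shown because it is the only annotated start in the window with both a peak and a sequence. The promoter of Gm41333, another long non-coding RNA gene, lies in the desert without a peak in any library and is shown for contrast. Capitals mark words of the motifs searched on both strands, TGTGGT for RUNX factors and AGATAA or AGATAG or TGATAA or TGATAG for GATA factors. Each is written 5′ to 3′ on the strand of its gene, from 250 bases before the start to 50 bases after it.

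Gm20740 (chr15:63479559-63479858, minus strand): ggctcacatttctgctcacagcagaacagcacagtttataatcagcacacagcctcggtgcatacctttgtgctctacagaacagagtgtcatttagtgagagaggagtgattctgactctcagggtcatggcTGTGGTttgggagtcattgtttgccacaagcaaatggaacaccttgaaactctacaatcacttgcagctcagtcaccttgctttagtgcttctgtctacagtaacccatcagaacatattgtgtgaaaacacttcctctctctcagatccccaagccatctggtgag
Gm41333 (chr15:62668934-62669233, plus strand): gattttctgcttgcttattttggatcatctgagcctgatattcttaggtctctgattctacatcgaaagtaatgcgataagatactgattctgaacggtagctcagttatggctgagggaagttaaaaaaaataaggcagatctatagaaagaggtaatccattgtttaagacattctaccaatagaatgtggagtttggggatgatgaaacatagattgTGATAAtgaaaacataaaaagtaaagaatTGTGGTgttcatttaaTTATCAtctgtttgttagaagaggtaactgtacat

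The Gm20740 promoter held 1 RUNX word and no GATA word. The Gm41333 promoter, at +683.8 kb, held 1 RUNX word and 2 GATA words, the most GATA words of the 8 promoters. Those of Gm30113 and Gsdmc3, also without a peak, held 1 GATA word each, and the remaining promoters without a peak held none. Over all 32851 promoters of the table, 16.8% held the RUNX word and 29.8% a GATA word. Neither printed sequence held TGGGAA, the core of the RBPJ site, CTTTGA of TCF and LEF factors, or CACGTG, the E-box that MYC binds. These words occurred in 25.6%, 16% and 7.15% of promoters. The matches describe these letters only. No sequence was read for N-Me or for the starts of Myc and Pvt1.

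The window held 144 and 138 peaks in the wild-type libraries and 131 and 115 peaks in the mutant libraries (141 ± 4.24 against 123 ± 11.3, mean ± SD, n = 2 each). The peaks covered 55.0 and 59.0 kb in wild type and 74.4 and 61.5 kb in mutant (57.0 ± 2.81 against 68.0 ± 9.13 kb). Wild-type libraries thus had more peaks and mutant libraries more covered length, without overlap in either measure. The exact permutation test gave p = 0.333 for both, which is the smallest p that 2 against 2 libraries allow. The whole lists also held more peaks in wild type (169255 and 156372) than in mutant (121022 and 119023), but their covered length overlapped, at 72.1 and 70.8 Mb against 72.3 and 69.3 Mb. Lists were called per library and hold no read counts, so the depth is unknown. The shortest listed peak was 64 and 65 bp in wild type and 73 and 87 bp in mutant, and the smallest gap between peaks 257, 261, 293 and 349 bp. With the length minimum and joining gap set alike in all lists, the difference in peaks was 5.0 (p = 0.667, exact permutation test) in place of 18, and without mutant 2 it was 10. The difference in covered length, wild type minus mutant, was -10868 bp with the minimum and gap set alike, against -10962 bp before. With only the 119023 strongest peaks of each list, mutant libraries had 27.5 more peaks in the window. The part of list construction in these differences was otherwise not tested.

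**Figure D1:**
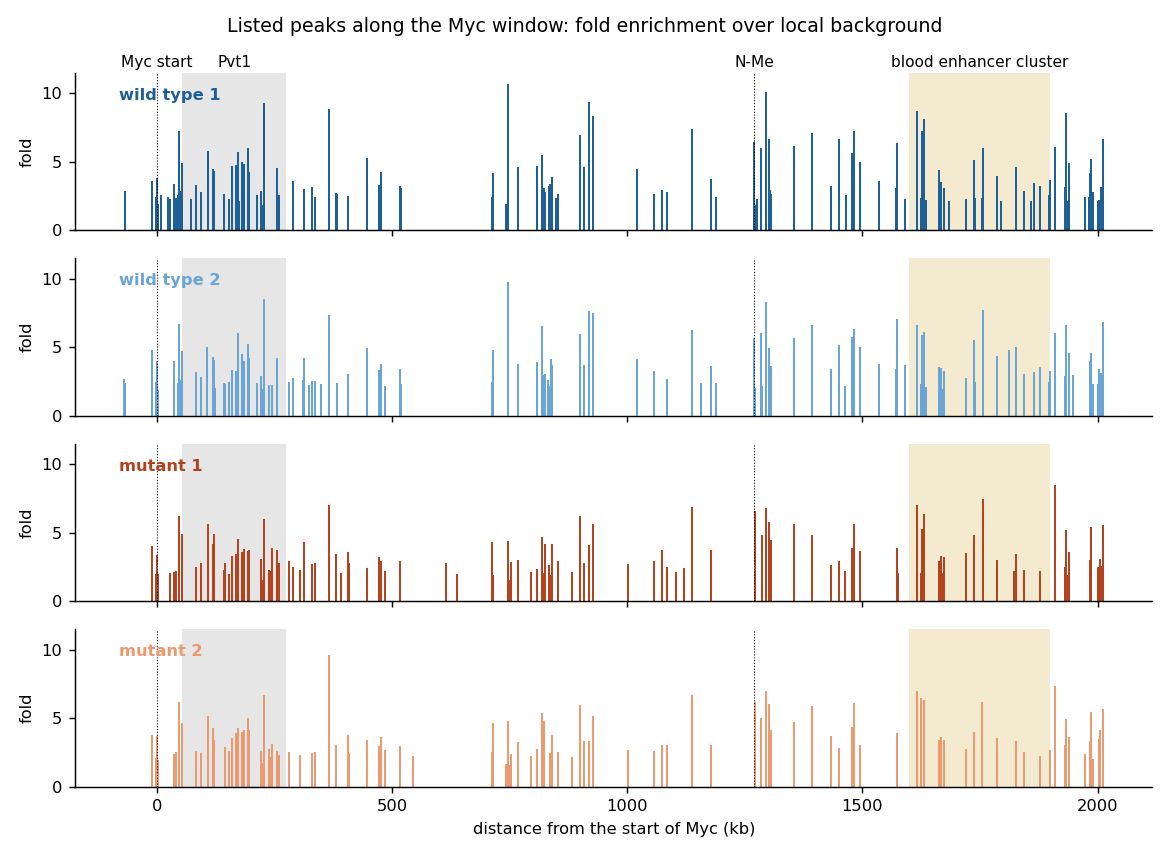
Each bar is 1 listed peak at its distance from the start of Myc (kb, x axis), and its height is the deposited fold enrichment over local background (y axis), in 1 panel per library. Dotted lines mark the start of Myc and N-Me, and shading marks Pvt1 and the blood enhancer cluster. The same tall peaks recur in the 4 panels, at +365.6 kb, +1294.8 kb and +1616.4 kb among others, while the peak at +745.4 kb is 10.66 and 9.78 in wild type and 4.43 and 4.79 in mutant.

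Of the 177 regions, 88 (49.7%) were called in all 4 libraries, against 56.7% of regions genome-wide. Those 88 had a median width of 657 bp (138 to 2378 bp). A further 19 were called in 3 libraries, 32 in 2 and 38 in 1. Regions of a single library were narrow, with a median of 103.5 bp, and 15 of the 38 belonged to wild type 1, 11 to wild type 2, 11 to mutant 1 and 1 to mutant 2. Of the 32 regions of 2 libraries, 15 were called in both wild-type libraries, 13.3% of the 113 regions found in both wild-type libraries, with a genome-wide share of 15%. Another 11 were called in both mutant and no wild-type library, 10.2% of the 108 regions found in both mutant libraries. The genome-wide share was 1.75%.

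The authors' fold enrichment of a region's strongest peak was ranked within each library among the 102231 regions called in all 4, as a percentile in which 100 is the strongest. Of the 88 members, 20 (22.7%) ranked higher in both wild-type libraries than in both mutant libraries, where 27.7% did so genome-wide. The opposite held for 28 (31.8%, against 32.4% genome-wide). By fold and with all 4 libraries, both shares thus lay near or below the background. By −log10 p, 21 members (23.9%, genome-wide 29.3%) ranked higher in wild type and 38 (43.2%, genome-wide 30.7%) in mutant. Another ranking took the length-weighted mean fold times the share of the merged region that peaks covered (mean fold times covered share). By it these were 13 (14.8%, genome-wide 26.6%) and 41 (46.6%, genome-wide 33.7%). The share higher in mutant thus stood above the background by these 2 rankings. Without wild type 2 the count higher in mutant by fold was 46 (50%, genome-wide 43.3%), and without mutant 2 it was 47 (49.5%, genome-wide 42.3%). Without wild type 1 or without mutant 1 it was 41 each time (44.1% and 45.1%, genome-wide 41.7% and 41.4%). By construction 3 libraries separate more often than 4, which raises the genome-wide shares as well. The median difference in rank, wild type minus mutant, was -4.04 points over the members and -0.41 over the genome. By each of 4 rankings (fold, −log10 p, length-weighted mean fold, and mean fold times covered share) 9 members (10.2%, genome-wide 13.4%) ranked higher in wild type and 20 (22.7%, genome-wide 16.3%) in mutant. These rankings share values and are not independent. At 77 of the 88 members each library held 1 peak, so the mean fold there equals the fold. Across the 88 regions the folds of replicates had a Spearman rho of 0.928 in wild type and 0.901 in mutant, and those of different genotypes 0.773 to 0.810, as a description of regions that share their libraries.

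**Figure D2:**
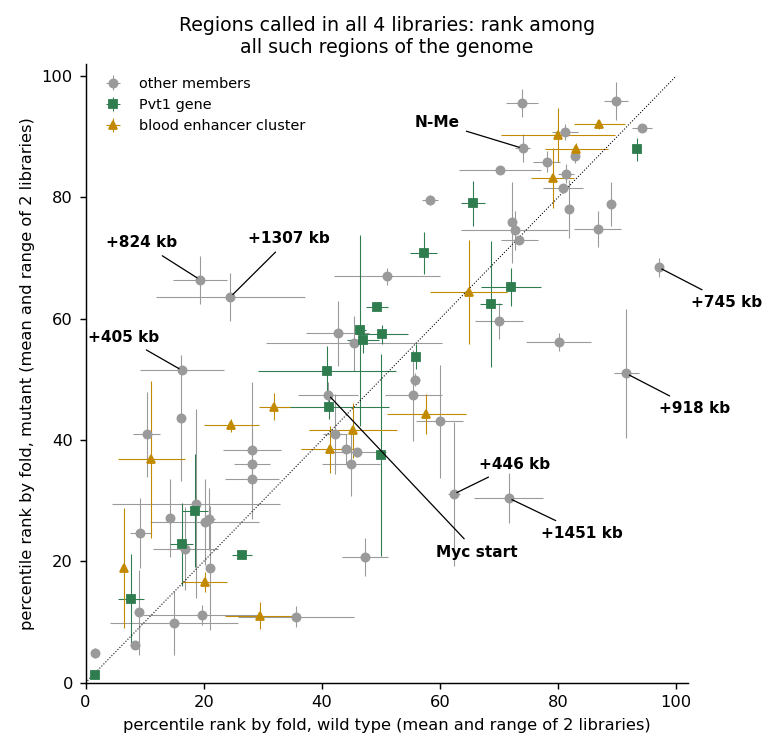
Each point is 1 of the 88 regions called in all 4 libraries, placed by its percentile rank by fold in wild type (x axis) and mutant (y axis), as the mean with a bar over the range of 2 libraries. On the dotted diagonal the ranks are equal, N-Me stands above it at 73.99 against 88.06, and the region at +745.4 kb stands far below it, with 97.0 in both wild-type libraries against 66.9 and 70.0 in mutant.

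Upstream of Myc the window held 5 regions, and those over the gene carried modest folds. The promoter region (61984140 to 61986019, across the start of Myc) was called in 4 of 4 libraries with fold 3.83 and 4.02 in wild type and 3.36 and 3.69 in mutant. Its −log10 q was 126.83, 108.87, 141.33 and 135.78 in the same order. By fold it was in place 55, 47, 52 and 43 of the 88 regions, so the Myc promoter sat in the middle of its own window. By −log10 p, which also depends on depth, its percentile among all common regions was 91.5, 93.2, 93.8 and 94.4. By fold the percentile was 36.0 and 46.1 in wild type and 45.4 and 49.6 in mutant (41.04 ± 7.16 against 47.49 ± 2.92), with overlapping groups and an exact permutation p of 0.667.

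Within the body of Myc, a region 2369 bp wide (61986348 to 61988716, at +2.2 kb) had low folds of 1.94, 1.88, 1.96 and 1.94. It ranked between 1.32 and 5.76 in the 4 libraries. Upstream, the region at -1.8 kb had fold 2.42 and 2.44 in wild type and 2.00 and 2.07 in mutant, and the region at -10.1 kb had 3.57 and 4.79 against 4.06 and 3.77. The first did not overlap between genotypes and the second did. Farther upstream, the region at -68.7 kb (61916604 to 61916726) was called only in wild type, with fold 2.89 and 2.36. Between Myc and Pvt1 the region at +46.8 kb (62031843 to 62032502) was among the strongest of the window, with fold 7.24 and 6.72 in wild type and 6.25 and 6.18 in mutant. Its percentile was 82.4 and 83.2 in wild type and 87.9 and 85.7 in mutant, so the fold was lower and the rank higher in both mutant libraries. The neighbouring region at +35.9 kb had fold 3.34 and 3.99 against 2.1 and 2.36, with ranks that were higher in both wild-type libraries (25.8 and 45.4 against 9.22 and 12.6).

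Pvt1 was the densest long segment of the window. Its 222 kb (62037986 to 62260215) overlapped 30 regions, of which 18 were called in all 4 libraries, or 8.10 per 100 kb, against 3.03 per 100 kb in the desert beyond it. The start of Pvt1, at +52.9 kb, carried a region 2378 bp wide with fold 4.89 and 4.74 in wild type and 4.92 and 4.62 in mutant. It was split into 2 peaks in each wild-type list and joined into 1 in each mutant list. Its ranks by fold were 55.0 and 59.5 against 74.2 and 67.4, and mutant was higher by each of the 4 rankings. Covered length was larger in wild type, at 2116 and 1897 against 1826 and 1805 bp. No region lay on the other end of Pvt1.

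The strongest region within Pvt1 was at +227.3 kb (62212087 to 62213115), with fold 9.30 and 8.5 in wild type and 6.01 and 6.72 in mutant. Its ranks were higher in wild type, at 93.5 and 93.3 against 86.0 and 89.7. The region at +107.2 kb had fold 5.78, 5.0, 5.64 and 5.17 (wild type first), and its ranks were higher in mutant, at 67.7 and 63.6 against 82.6 and 75.3. Within Pvt1 the regions thus went both ways. Ranks were higher in both wild-type libraries at 2 of the 18, higher in both mutant libraries at 5, and overlapping at 11.

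A group of regions from +172 to +196 kb filled the middle of Pvt1. At +172.3 kb the fold was 5.72 and 6.07 in wild type and 4.52 and 4.31 in mutant. At +192.8 kb it was 6.01 and 5.22 against 3.65 and 4.99. Both had overlapping ranks. At +179.7 kb the fold was 4.97, 4.51, 3.63 and 3.98, at +184.5 kb 4.87, 4.01, 3.82 and 4.14, and at +196.3 kb 4.27, 4.19, 3.75 and 4.12. The last 2 of these ranked higher in both mutant libraries. Nearer the start, +119.3 kb had 4.45, 4.27, 4.15 and 4.29 and +121.4 kb had 4.34, 4.09, 4.89 and 3.39. The other 8 Pvt1 regions called in all 4 libraries were weaker, down to 1.81, 1.98, 1.58 and 1.7 at +224.8 kb, the lowest fold of any region of the window called in all 4. Covered length was larger in both wild-type libraries at 5 of the 18 and larger in both mutant libraries at 4.

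Beyond Pvt1 the desert up to +1.2 Mb, 925 kb with few annotated genes, held 64 regions, 28 of them called in all 4 libraries. Of the 9 segments this one had the largest difference in covered length, with 14.1 and 13.8 kb in wild type and 24.3 and 19.3 kb in mutant (13.984 ± 0.212 against 21.796 ± 3.473 kb). The groups did not overlap, and the exact permutation p was 0.333. With the length minimum and joining gap set alike, the values were 14.95 and 13.62 against 24.3 and 19.3 kb. Most of the length was in regions common to all libraries, which covered 12.1 and 12.3 kb in wild type and 18.7 and 15.9 kb in mutant. Of the 28 common desert regions, 18 had a larger covered length in both mutant libraries and 1, at +917.9 kb, in both wild-type libraries. Over the whole window it was larger in mutant at 46 of the 88 regions (52.3%, against 38.8% genome-wide) and larger in wild type at 8 (9.09%, against 19.8%). Leaving out any 1 library raised the latter to between 15 and 25 (15.8% to 27.5%, against 27.3% to 34.2% genome-wide). With the length minimum and joining gap set alike these were 44 and 9 of 86 regions, against 36.8% and 20.8% genome-wide. The difference in covered length over the window, wild type minus mutant, was -4505 bp without mutant 1 and -17420 bp without mutant 2.

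**Figure D3:**
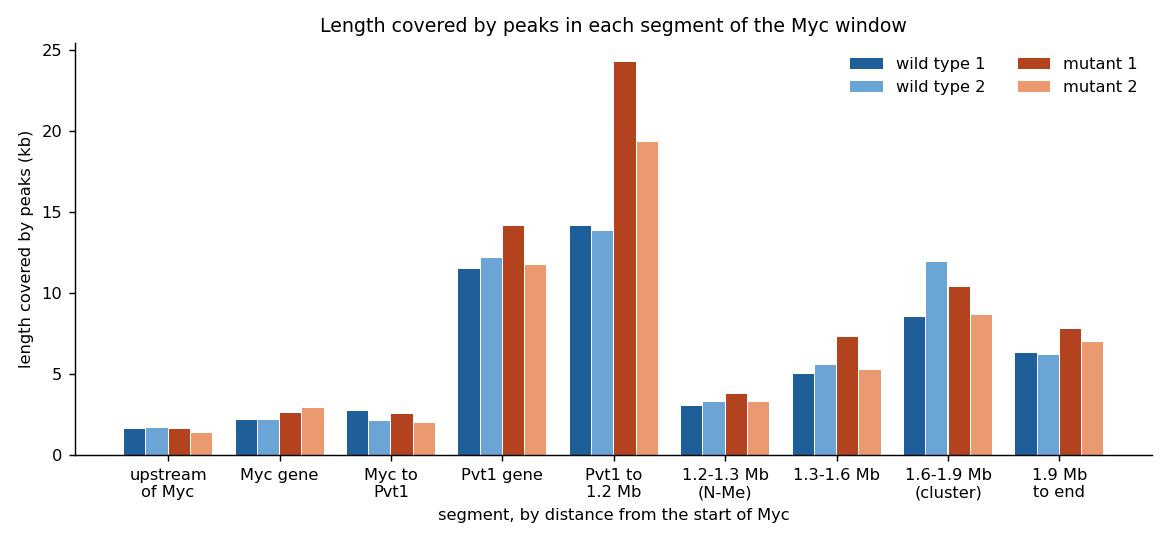
Bars give the length covered by peaks (kb, y axis, from 0) in each segment of the window, ordered by distance from Myc (x axis), with 1 bar per library and no error bars. In the desert from Pvt1 to 1.2 Mb the mutant libraries reach 24.3 and 19.3 kb against 14.1 and 13.8 kb in wild type, and in the blood enhancer cluster the libraries of both genotypes overlap.

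The strongest desert region was at +365.6 kb (62350621 to 62351351), with fold 8.86 and 7.38 in wild type and 7.0 and 9.62 in mutant. By the lowest fold of its 4 libraries it was the first of the window, and its ranks were higher in mutant (91.9 and 87.8 against 92.7 and 99.01). At +900.2 kb the fold was 6.98, 5.94, 6.20 and 6.00, and at +1137.9 kb, within the non-coding RNA gene Gm30159, it was 7.37, 6.26, 6.87 and 6.68. At these 3 desert regions the folds of the genotypes overlapped, but mutant ranked higher by each of the 4 rankings. By fold the percentiles were 80.3 and 75.8 in wild type against 87.5 and 84.1 in mutant at +900.2 kb. At +1137.9 kb they were 83.4 and 79.0 against 92.0 and 89.5.

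Other desert regions stood apart between genotypes in fold as well. The region at +745.4 kb (62729936 to 62731619) had the highest fold of the window in both wild-type libraries, 10.66 and 9.78, and 4.43 and 4.79 in mutant. Its covered length went the other way, at 791 and 868 bp in wild type and 1684 and 1543 bp in mutant. Wild-type lists held 2 peaks there and mutant lists 1. By mean fold times covered share its ranks were higher in mutant, at 46.0 and 55.1 against 72.3 and 73.4. The direction at this region therefore depended on the measure. At +917.9 kb (62902965 to 62903418) it did not. Fold was 9.33 and 7.65 in wild type and 4.12 and 3.31 in mutant, ranks were 93.6 and 89.4 against 61.6 and 40.4, and wild type was higher by each of the 4 rankings. The next region, at +926.0 kb, had fold 8.32 and 7.51 against 5.62 and 5.17.

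Mutant libraries ranked higher by each of the 4 rankings at +823.9 kb (62808836 to 62809630), with fold 2.82 and 3.06 in wild type and 4.17 and 4.82 in mutant. Its ranks were 14.8 and 23.9 against 62.4 and 70.4. At +405.2 kb the fold was 2.52 and 3.04 in wild type and 3.63 and 3.76 in mutant. In the desert as a whole, ranks were higher in both mutant libraries at 11 of 28 regions, higher in both wild-type libraries at 6 and overlapping at 11.

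Of the 11 regions called only in mutant, 9 lay in the desert. They were at +303.1, +407.6, +714.6, +749.8, +753.6, +795.7, +822.9, +882.7 and +1001.6 kb. Their folds were low, from 1.57 at +749.8 kb to 2.88 at +753.6 kb. The strongest of the 11 was outside the desert, at +2004.6 kb within Cyrib, an actin regulator gene, with fold 3.1 and 4.17, and the remaining one was at +239.6 kb in Pvt1 (2.20 and 2.18). The median width was 284 bp, and 2 of the 11 lay within 1 kb of a region called in all libraries, at +714.6 and +822.9 kb. Without mutant 2 the count was 23 (17.6%, genome-wide 4.11%), and without mutant 1 it was 13 (11.3%, genome-wide 3.83%). With only peaks of fold 4 or more it was 2 (6.67%, genome-wide 1.55%). These 2 were not among the 11, none of which reached fold 4 in both mutant libraries. They lay at +823.9 and +1306.6 kb, in regions called in all 4 libraries whose wild-type peaks were below fold 4. With only the 119023 strongest peaks of each list the count was 24, or 22.4% of regions found in both mutant libraries, against 6.99% genome-wide.

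The 15 regions called only in wild type were spread over the window, with 3 of them in the desert, 4 between +1.3 and +1.6 Mb and 3 in the blood enhancer cluster. The highest fold was at +1021.3 kb, 4.46 and 4.11, followed by +1534.7 kb with 3.62 and 3.76. The others in the downstream direction were at +44.4, +120.3, +213.1, +518.8, +1187.8, +1284.0, +1303.3, +1571.7, +1591.1, +1739.6, +1865.1 and +1897.9 kb, with folds between 2.23 and 3.74. Their median width was 174 bp, and 3 of the 15 lay within 1 kb of a region called in all libraries. Without wild type 1 the count was 26 (19.8%, genome-wide 21%), and without wild type 2 it was 30 (22.1%, genome-wide 25.4%). Without mutant 1 it was 23 (20.2%, genome-wide 20%), and without mutant 2 it was 18 (15.9%, genome-wide 19.3%). With equal numbers of peaks it was 5 (6.41%, genome-wide 4.92%), against 24 (22.4%, genome-wide 6.99%) in the opposite direction.

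The common regions left long stretches empty. The longest without a region called in all libraries ran 195.5 kb, from +516.3 to +711.8 kb, and held 4 regions of fewer libraries. Another of 130.1 kb ended at +1056.4 kb. The stretch before N-Me was 90.5 kb, from +1179.2 kb, so that N-Me stood at the near edge of a renewed group of open regions.

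N-Me (63254999 to 63256647, 1649 bp, at +1270.5 kb and in no annotated gene) had fold 6.45 and 5.67 in wild type and 6.6 and 6.18 in mutant. By fold it took place 19 and 24 of the 88 regions in wild type and 7 and 10 in mutant. Its percentile was 75.3 and 72.7 in wild type and 90.4 and 85.8 in mutant (73.99 ± 1.79 against 88.06 ± 3.27, n = 2 each). The groups did not overlap, and the exact permutation p was 0.333. By −log10 p the order was reversed, at 88.7 and 85.9 in wild type and 84.1 and 78.0 in mutant. By length-weighted mean fold it was 68.2 and 64.1 against 90.4 and 85.8, and by mean fold times covered share 59.1 and 66.2 against 78.9 and 76.4. The standing of N-Me between genotypes thus depended on the measure. Covered length overlapped between genotypes, at 1185, 1367, 1237 and 1231 bp. Wild-type lists held a main peak of 998 and 1100 bp and a small one of 187 and 267 bp, and mutant lists 1 peak. A peak list does not show the 2 mutated GATA sites themselves, and the genotype was taken from the labels.

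Near N-Me, within the segment from +1.2 to +1.3 Mb, the strongest region was not N-Me itself but the one at +1294.8 kb (63279640 to 63280590). It had fold 10.10 and 8.31 in wild type and 6.77 and 7.01 in mutant, and places 2, 3, 6 and 3 of the 88. Its ranks by fold were higher in wild type (95.9 and 92.6 against 91.4 and 91.5) although its covered length was larger in mutant (573 and 628 against 951 and 887 bp). At +1285.6 kb the fold was 5.99 and 6.02 against 4.82 and 5.0, with overlapping ranks. Beside it, the narrow region at +1284.0 kb (2.53 and 2.69) was called only in wild type. A region at +1276.1 kb was called in wild type 1 alone, with fold 2.3.

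**Figure D4:**
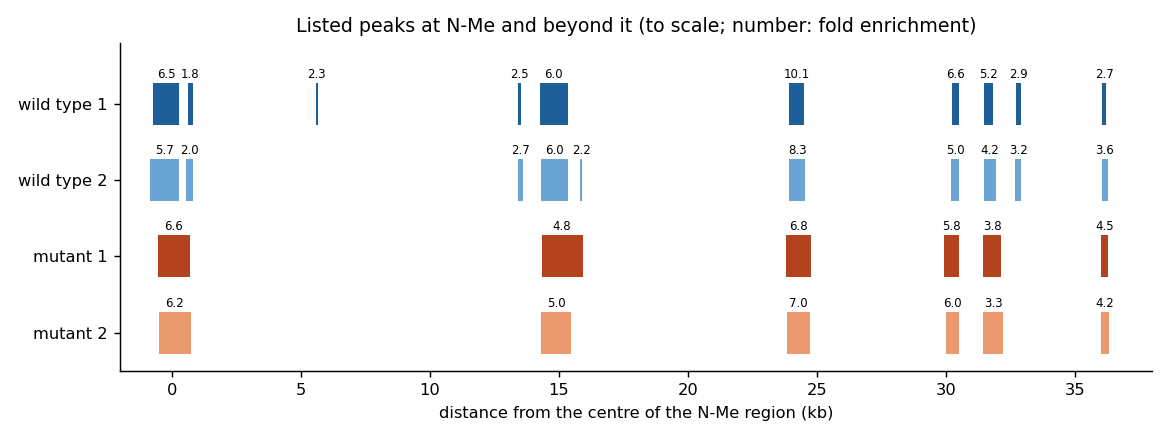
Blocks show listed peaks to scale by distance from the centre of the N-Me region (kb, x axis), 1 row per library, with the fold enrichment above each. N-Me, at 0, is split in wild type and single in mutant with main folds of 5.67 to 6.6, and the tallest peak of the stretch lies farther downstream, at 10.10 and 8.31 in wild type and 6.77 and 7.01 in mutant.

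From +1.3 to +1.6 Mb there were 18 regions, 11 in all 4 libraries. Ranks were higher in both wild-type libraries at 4 of the 11, higher in both mutant libraries at 2 and overlapping at 5. Gm20740 overlapped 6 regions here, and 3 of its regions ranked higher in wild type. Its start, the promoter printed above, lay in the region at +1494.3 kb (63479361 to 63479850), with fold 4.96 and 5.02 in wild type and 3.66 and 3.07 in mutant. Within the gene, +1450.9 kb (63435891 to 63436590) had 6.67 and 5.15 against 2.94 and 2.82, and was higher in wild type by each of the 4 rankings. Its percentiles by fold were 77.5 and 65.8 against 34.5 and 26.4. At +1574.1 kb the fold was 6.39 and 7.04 in wild type and 3.92 and 3.93 in mutant. In the opposite direction, +1306.6 kb had 2.66 and 3.61 against 4.46 and 4.18. At +1300.7 kb the fold overlapped, at 6.63, 4.97, 5.81 and 6.04, while the ranks were higher in mutant (77.1 and 63.2 against 84.3 and 84.6).

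The blood enhancer cluster, from +1.6 to +1.9 Mb, held 28 regions, of which 14 were called in all 4 libraries, 3 in wild type only and 0 in mutant only. It covered 8.56 and 11.95 kb in wild type and 10.402 and 8.630 kb in mutant (10.26 ± 2.40 against 9.52 ± 1.25 kb), with overlapping groups and an exact permutation p of 1. The wild-type spread contained 1 wide region of 3082 bp at +1811.5 kb in Gsdmc, called in wild type 2 alone with fold 4.82. Of its 4 regions with the highest lowest fold, 3 were at its near edge. At +1616.4 kb (63601186 to 63602249) the fold was 8.71 and 6.66 in wild type and 7.01 and 6.97 in mutant. At +1631.8 kb it was 8.14, 6.13, 6.38 and 6.34, and at +1625.7 kb 7.27, 5.92, 5.24 and 6.48. In each of these regions the mutant folds lay within or below the wild-type range. The remaining one, at +1755.4 kb over the end of the non-coding RNA gene Gm41336 nearer to Myc, had fold 5.99, 7.70, 7.43 and 6.20, and was the strongest of the cluster in wild type 2 and mutant 1.

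Farther into the cluster, regions were weaker. At +1736.5 kb, in 4930449C09Rik, the fold was 5.11 and 5.55 in wild type and 4.83 and 3.98 in mutant. At +1825.9 kb it was 4.65 and 5.05 against 3.46 and 3.33, with ranks higher in wild type (51.0 and 64.4 against 47.6 and 40.9). The region at +1876.7 kb, in Gsdmc3, also ranked higher in wild type, with fold 3.24 and 3.54 against 2.23 and 2.22. Ranks were higher in both mutant libraries at 5 of the 14 and overlapping at 7. Among the 5, +1667.4 kb had fold 3.51, 3.50, 3.28 and 3.61, and +1672.9 kb had 3.07, 3.28, 3.20 and 3.44. Among the 7, +1663.0 kb had 4.38, 3.58, 2.94 and 3.39, and +1786.4 kb had 3.94, 4.36, 3.03 and 3.54. At +1624.5, +1719.3 and +1843.7 kb the folds were between 2.1 and 3.54. Covered length was larger in both mutant libraries at 7 of the 14 and in both wild-type libraries at 0, and the other 7 overlapped.

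At the far end of the window, a region in Gsdmc4, one of a family of gasdermin genes, was the strongest common region in mutant 1 and the next to strongest in mutant 2. At +1910.6 kb (63895354 to 63896447) the fold was 6.07 and 6.02 in wild type and 8.49 and 7.34 in mutant, with places 22 and 19 against 1 and 2 of the 88. Its percentiles were 71.2 and 76.6 against 97.9 and 93.2. In the transcribed pseudogene Gsdmcl-ps, +1932.5 kb went the other way, with 8.59 and 6.65 against 5.19 and 4.92. In Cyrib, +1986.4 kb had 5.19 and 4.59 in wild type and 5.43 and 5.45 in mutant. Neighbouring regions of this segment thus ranked in opposite directions.

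Of the 27 annotated genes that overlap the window, 8 had a peak within 1 kb of an end in all 4 libraries. They were Myc, Pvt1, Cyrib, the small nucleolar RNA Gm22521, Gm41334, Gm20740, Gm41336 and Gsdmcl-ps. The ends of Gsdmcl1 had a peak in 2 libraries, those of Gsdmc and of Gsdmc2 each in 1, and those of the other 16 genes in none.

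The Myc window was set beside windows of the same length around Bcl11b, which commits precursors to the T lineage, and Gata3, which encodes the main GATA factor of T cells. It held 68.6 and 65.7 peaks per Mb in wild type and 62.4 and 54.8 in mutant. The Bcl11b window held 144.3, 137.6, 120.0 and 110.0, and the Gata3 window 52.9, 51.0, 49.5 and 44.8. The Myc window was lower than Bcl11b in 4 of 4 libraries, by a mean of 65.1 peaks per Mb, and higher than Gata3 in 4 of 4, by 13.3. Both exact paired permutation tests gave p = 0.125 (0.125 after Benjamini-Hochberg adjustment over the 2 tests), the smallest that 4 pairs allow. The genome held 62.2, 57.4, 44.5 and 43.7 peaks per Mb. Regions called in all libraries were 49.7% of those in the Myc window, 57.9% around Bcl11b and 58.5% around Gata3. Of the regions found in both wild-type libraries, those absent from both mutant libraries were 15 of 113 (13.3%) in the Myc window, 21 of 239 (8.79%) around Bcl11b and 4 of 90 (4.44%) around Gata3. Of the regions found in both mutant libraries, those absent from both wild-type libraries were 11 of 108 (10.2%), 11 of 209 (5.26%) and 6 of 88 (6.82%). The mutant-only share was thus above the genome-wide 1.75% in the other windows too.

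Of a list of genes whose products are known to act at N-Me, 1 is not reported here. The other 15, among them Notch1, Rbpj, Maml1, Gata3, Runx1, Tcf7 and Myb, had a peak within 1 kb of an end in 4 of 4 libraries, against 71.9, 70.9, 68.2 and 68.5% of 21883 protein-coding genes. The labelled cell type was checked in the same way. All 10 DN3 and T-lineage genes and all 5 genes of later thymocytes had a peak in every library. Of genes of other lineages, 3 of 5 erythroid genes had one in every library, while Gata1 and Hba-a1 had none, and 3, 4, 3 and 3 of 5 B-cell genes had one, with none at Ms4a1. Myeloid genes differed, with 3 of 5 in each wild-type library and 1 of 5 in each mutant library. Csf1r and Mpo were called only in wild type, and Elane and Cebpe, which define granulocytes, in none. Their part in the results of the window was not tested, and fewer cells of a type and less open chromatin per cell cannot be told apart.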

How the data were processed

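ATAC-seq inserts sequencing adapters into open chromatin with a transposase. The submitters' processing notes name Bowtie2 2.3.3.1, MACS2 2.1.1, cutadapt 1.16 and SAMtools 1.7, and the build mm10 (GRCm38). The sources used here give neither order nor settings, and do not state a read shift for the transposase. The authors called broad peaks per library. Each deposited peak has a score (10 times its −log10 q), a fold enrichment that is a ratio to local background, and −log10 p and −log10 q values. These are the authors' values and describe a peak within its own list. No read counts or depths are given, so no interval was computed.

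Only the 19 autosomes and both sex chromosomes entered, so 0.112% to 0.131% of a list was dropped. Lists were merged where they overlapped by 1 bp or more, and a region counted as called in each library with an overlapping peak. Genes came from RefSeq (GRCm38.p6) without strand or exons, so gene ends took the place of starts, and exon, intron and UTR positions were not used here. Comparisons of 2 against 2 libraries were exact two-sided permutation tests. Replicate numbers were not used to pair the libraries in the main tests. The replicate 1 minus 2 differences in log fold had r = -0.0675 between genotypes over 102231 regions. This value cannot show whether libraries were prepared in pairs. Alternatives were a minimum fold of 4, a minimum −log10 q of 5, equal numbers of peaks, 50% cover, a common minimum length of 87 bp and joining gap of 348 bp, other rankings, and leaving out each library.

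The window, its segments, the gene lists and the tests were chosen with earlier results of these data known. The regions named were those over Myc and the ends of Pvt1, the 10 highest of the window, of Pvt1 and of the cluster by the lowest fold of their 4 libraries, all others called in all 4 libraries in the cluster, all from +1.2 to +1.3 Mb, and all called in 1 genotype only. Other regions were chosen after their values were seen. The code was tested on simulated lists. Python 3.11.15, numpy 2.4.6, pandas 2.3.3, scipy 1.17.1 and matplotlib 3.10.9 were used.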

Additional observations from a re-analysis of the deposited data

How the results depend on the processing

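No comparison of 2 against 2 libraries could pass a threshold, so the settings move values, not calls, and the cause of each move below was not tested. The differences between genotypes that changed sign numbered 3, written as wild type minus mutant. The covered length became 2449.5 bp with only peaks of fold 4 or more (p = 0.667, exact permutation test), the number of peaks became -27.5 with equal numbers of peaks, and the N-Me rank became 6.24 points by −log10 p. The 88 regions called in all libraries became 28 at fold 4 or more, 56 at −log10 q of 5 or more and 56 with 50% cover. Regions called only in mutant were counted anew in each setting and need not be among the 11 of the main count. Under these settings they numbered 2 (6.67%, genome-wide 1.55%), 6 (9.52%, genome-wide 1.72%) and 18 (20%, genome-wide 7.46%). With equal numbers of peaks they numbered 24 (22.4%, genome-wide 6.99%). The count only in wild type, 15 in the main setting, was 10 at fold 4 or more (22.2%, genome-wide 19.7%). It was 9 at −log10 q of 5 or more (12.7%, genome-wide 10.3%) and 17 with 50% cover (20%, genome-wide 19.3%). With equal numbers of peaks it was 5 (6.41%, genome-wide 4.92%). Another alternative, mean fold times covered share, was chosen after seeing the data. By it, 13 regions ranked higher in wild type in place of 20 and 41 higher in mutant in place of 28. By −log10 p these were 21 and 38.

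Leaving out each library in turn gave 91 to 95 regions common to the rest, 18 to 30 only in wild type and 13 to 23 only in mutant. The share only in wild type was 15.9% to 22.1% (genome-wide 19.3% to 25.4%). The share only in mutant was 11.3% to 17.6% (genome-wide 2.56% to 4.11%). Ranks were then higher in wild type at 26 to 30 (28.3% to 33%, genome-wide 37.1% to 37.9%). They were higher in mutant at 41 to 47 (44.1% to 50%, genome-wide 41.4% to 43.3%). Covered length was larger in wild type at 15 to 25 (15.8% to 27.5%, genome-wide 27.3% to 34.2%). It was larger in mutant at 50 to 61 (54.9% to 64.2%, genome-wide 44.9% to 52.7%). By construction 3 libraries separate more often than 4, among the members and genome-wide alike. The differences were 10 to 26 peaks, -17420 to -4505 bp, -15.27 to -11.06 points for N-Me and -11.26 to -1.36 points for the Myc promoter. With the replicate number as a block the differences were the same by construction (18 peaks, -10962 bp, -14.07 and -6.45 points), with an exact sign-flip p of 0.5, the smallest that 2 pairs allow. Peak lists without depth cannot show whether a missing peak is closed chromatin or was not detected.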
